A study of Mus musculus with 9 samples.

Results

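The genes described here are the chromatin remodelling and bromodomain genes of mouse, chosen by symbol alone: every row of the count table whose symbol begins with Smarca to Smarce, Arid1 to Arid5, Chd1 to Chd9 or Brd1 to Brd9, pseudogenes left out. This rule gave 41 of the 46078 genes in the table, namely 13 Smarc, 10 Arid, 11 Chd and 7 Brd genes. Of these, 38 passed the filter on low counts and were tested. Smarca1, Smarcd3 and Arid3c did not pass and are given by their counts only. Chd3os is a gene next to Chd3 that meets the symbol rule and is not itself a remodeller.

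The samples were 6 T cell lymphomas induced by MYCN, a transcription factor of the MYC family, taken from the thymus (lymphomas 34, 53, 56, 70, 72 and 86), and 3 preparations of CD4+ T cells from the spleen, which were the controls (CD4 1, 2 and 3). All mice were of the strain C57BL/6J. The labels give neither the allele or promoter that drove MYCN, nor the animals' age, nor whether the lymphomas or the CD4 preparations came from separate animals. Where samples share an animal, p-values measure only the spread between these samples. The 3′ ends of transcripts were sequenced.

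Chromatin remodellers use ATP to slide, evict or exchange nucleosomes. The BAF complexes (mammalian SWI/SNF) are built on the ATPase Smarca4 (BRG1) or its paralogue Smarca2 (BRM), on the scaffold subunits Smarcc1 and Smarcc2, and on core subunits such as Smarcb1, Smarcd and Smarce1. An Arid subunit sets the type of complex: Arid1a or Arid1b in canonical BAF, Arid2 in PBAF. Smarca5 and Smarca1 are the ATPases of ISWI complexes, and Chd3, Chd4 and Chd5 those of NuRD, which also holds histone deacetylases. Bromodomain proteins bind acetylated lysines in histones. Brd2 and Brd3 are BET proteins, which recruit the transcription elongation machinery.

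Reads counted in genes ranged from 11170704 to 15769679 in lymphoma and from 8099960 to 10808828 in CD4. T cell markers were present in both groups (10 of 10 detected), with a summed level of 1907 to 3627 CPM (counts per 1000000 of the TMM-scaled library) in lymphoma and 3346 to 3461 CPM in CD4. Cd4 itself had 6.04 to 71.9 CPM in lymphoma and 199 to 263 CPM in CD4. All 15 listed B cell markers, led by Fcer2a, were lower in lymphoma, and their summed level was 259 to 425 CPM there and 2819 to 3459 CPM in CD4. Most of the sum in lymphoma was Ighm, with 242 to 404 CPM there and 944 to 1374 CPM in CD4. Ighm had the smallest fall of the 15, with a log2 fold change of lymphoma over CD4 of -1.81. The median of the list was -6.79. None of the 15 was at 0 throughout either group. Myeloid and dendritic cell markers summed to 1470 CPM in lymphoma 34, 2206 CPM in lymphoma 56 and 73.0 to 228 CPM in the other lymphomas. In CD4 their sum was 881 to 1094 CPM. Of these 15 markers, 7 were lower in lymphoma and 0 higher. Erythroid markers summed to 14.0 to 889 CPM in lymphoma and 100.1 to 359 CPM in CD4. Stromal and epithelial markers summed to 97.8 to 181 CPM in lymphoma and 216 to 235 CPM in CD4. Of the last list, Dcn, Foxn1, Krt5 and Krt8 were at 0 in all CD4 libraries and Cdh5 in all lymphomas. Of its 6 tested genes, Dcn and Epcam were higher in lymphoma, Pecam1 was lower and 3 did not pass. Pecam1 alone had 186 to 199 CPM in CD4 and 59.3 to 81.3 CPM in lymphoma, so it made up most of the CD4 sum. All 15 proliferation markers were higher in lymphoma (summed level 2940 to 4045 CPM against 288 to 364 CPM). The part of these lists in the results below was not tested. In such bulk samples, fewer cells of a type and less RNA per cell cannot be told apart.

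Most tested Smarc genes were higher in lymphoma, more Arid and Chd genes were lower than higher, and most Brd genes did not pass the test. In the quasi-likelihood fit of edgeR, with p-values adjusted by Benjamini-Hochberg over 15401 tested genes, 26 of the 38 tested members had an adjusted p under 0.05, which is 68.4%, where 46.6% of all tested genes did. Of these 26, 14 were higher in lymphoma (24.7% of all tested genes were) and 12 lower (21.9% were). The members and all tested genes were not matched for level or for spread between libraries. A called change of at least 2-fold was seen in 13 of the 38 tested members, where 35.1% of all tested genes had one. Of these 13, 3 went upward, where 17.9% of all genes were of this kind, and 10 downward, where 17.2% were. The median log2 fold change of lymphoma over CD4 was -0.07 over the tested members and 0.04 over all tested genes. The balance of directions moved with the scaling: 12 members were higher and 16 lower with RLE scaling, 10 and 16 with upper quartile scaling, and 12 and 15 with library size alone. Without CD4 1, 8 members were higher and 12 lower.

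The CPM values of the groups did not overlap at 28 of the 38 members, with the lymphomas higher at 13 and lower at 15. The same held for 44.9% of all tested genes, with 22.6% above and 22.3% below. In the Smarc family 8 of 11 tested genes rose and 1 fell, with a median log2 fold change of 0.74. In the Arid family 2 of 9 rose and 5 fell (median -1.25), and in the Chd family 3 of 11 rose and 5 fell (median -0.42). Of the 7 Brd genes, 1 rose and 1 fell (median -0.07). Without CD4 2, 5 Smarc genes rose in place of 8, and without lymphoma 53 or 72, 2 fell. No Arid gene rose without lymphoma 72 or CD4 1, and 1 did without CD4 2 or 3. Without CD4 1 or 3, 1 Chd gene rose. Without lymphoma 34 or 53, 2 Brd genes rose, and without lymphoma 53, 2 fell. After removal of the trend with GC content and gene length, the Arid median was -0.56, the Chd median 0.15 and that of all members 0.28. The signs of the last 2 turned with that step, as did that of the Brd median. Length here is that of the exons of all transcripts of a gene, merged. Its median was 8212 bp over the tested members against 3730 bp over all tested genes.

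**Figure D1:**
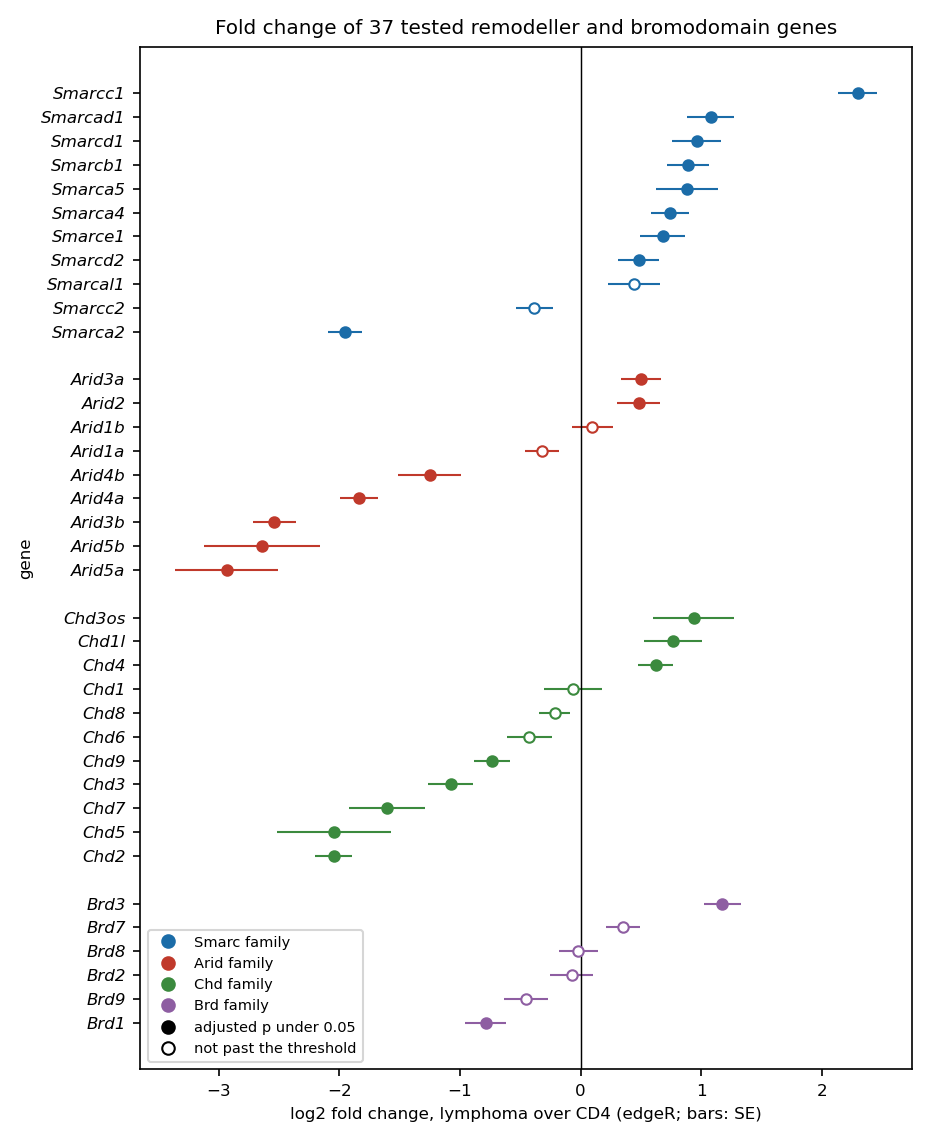
Log2 fold change of lymphoma over CD4 for 37 of the 38 tested members (points, with SE bars), ordered within the Smarc, Arid, Chd and Brd families, with filled points for an edgeR adjusted p under 0.05. Smarcc1 stands highest at 2.30 and Arid5a lowest at -2.93.

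The ATPases of the BAF complex moved in opposite directions. Smarca4 (ENSMUSG00000032187, GRCm38 chr9:21616169-21704230, plus strand) had 267, 264 and 224 CPM in CD4 1, 2 and 3, and from 357 to 516 CPM in the lymphomas (median 412). Every lymphoma was above every CD4 library. Its log2 fold change was 0.74 (SE 0.157, edgeR adjusted p 0.00225). Smarca2 (ENSMUSG00000024921, chr19:26605050-26778322, plus strand) had 367, 430 and 383 CPM in CD4 and from 84 to 117 CPM in the lymphomas (median 103). Here every lymphoma was below every CD4 library, and Smarca2 fell by 1.95 on the log2 scale (SE 0.140, edgeR adjusted p 9.94e-07).

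The balance of these paralogues was taken as the log2 ratio of their read counts within a library, which does not depend on how libraries are scaled. The height of a ratio also depends on how each transcript is captured, so only its difference between groups is read. A GC or length effect that differs between the groups would still enter that difference. The largest shifts of members on removal of the GC and length trend were those of Arid4b, Chd6, Chd8 and Chd9, at 0.61 to 0.85. Smaller shifts are not listed here. Over all alternatives the log2 fold change was -2.06 to -1.48 for Smarca2 and 0.63 to 0.80 for Smarca4. The ratios were not computed after that step. For Smarca4 over Smarca2 the log2 ratio was -0.46, -0.71 and -0.77 in CD4 1, 2 and 3, and 1.90, 2.62, 1.78, 2.02, 1.88 and 2.07 in lymphomas 34, 53, 56, 70, 72 and 86. The means were -0.65 ± 0.165 (SD, n = 3) and 2.04 ± 0.30 (SD, n = 6). The difference of 2.69 is a 6.46-fold shift towards Smarca4. The exact two-sided permutation p was 0.0238, the smallest that 6 against 3 libraries allow, and 0.0357 after Benjamini-Hochberg adjustment over the 15 pairs computed.

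Of the scaffold paralogues, Smarcc1 was called higher and Smarcc2 was not called. Smarcc1 (ENSMUSG00000032481, chr9:110117708-110240178, plus strand) had 174, 153 and 170 CPM in CD4 and from 688 to 925 CPM in the lymphomas (median 812). This was the largest rise of all members, 2.30 on the log2 scale (SE 0.160, edgeR adjusted p 7.88e-07), or 4.91-fold, with no overlap between the groups. Exons of Smarcc1 overlap those of Dhx30 on the opposite strand, as do those of Smarca2 with 4931403E22Rik, Arid3b with Gm17231 and Chd2 with Gm44686. The strand setting of the counting is not given in the sources used here, so these values are uncertain to that extent. On the same strand, exons of Chd2 overlap 1810026B05Rik, those of Smarca4 Gm27373 and those of Smarca5 Gm45872. Same-strand overlaps of Chd4 are with Mir7045, of Brd3 with Mir7578 and of Arid2 with Gm25397. How reads in same-strand overlaps were counted is not given either. Smarcc2 (ENSMUSG00000025369, chr10:128459248-128490482, plus strand) had 128, 129 and 138 CPM in CD4 and from 88.9 to 126 CPM in the lymphomas. Its log2 fold change of -0.38 (SE 0.152) did not pass (edgeR adjusted p 0.0557), although the groups did not overlap. It passed in 9 of 18 alternatives, among them RLE, upper quartile and library size scaling, DESeq2, limma voom, and leaving out lymphoma 53 (0.0395) or lymphoma 72 (0.0224), and over all alternatives the adjusted p was 0.0168 to 0.167. The log2 ratio of Smarcc1 to Smarcc2 was 0.33 ± 0.101 (SD, n = 3) in CD4 and 3.01 ± 0.236 (SD, n = 6) in lymphoma. That difference of 2.68 had an exact permutation p of 0.0238, adjusted 0.0357.

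**Figure D2:**
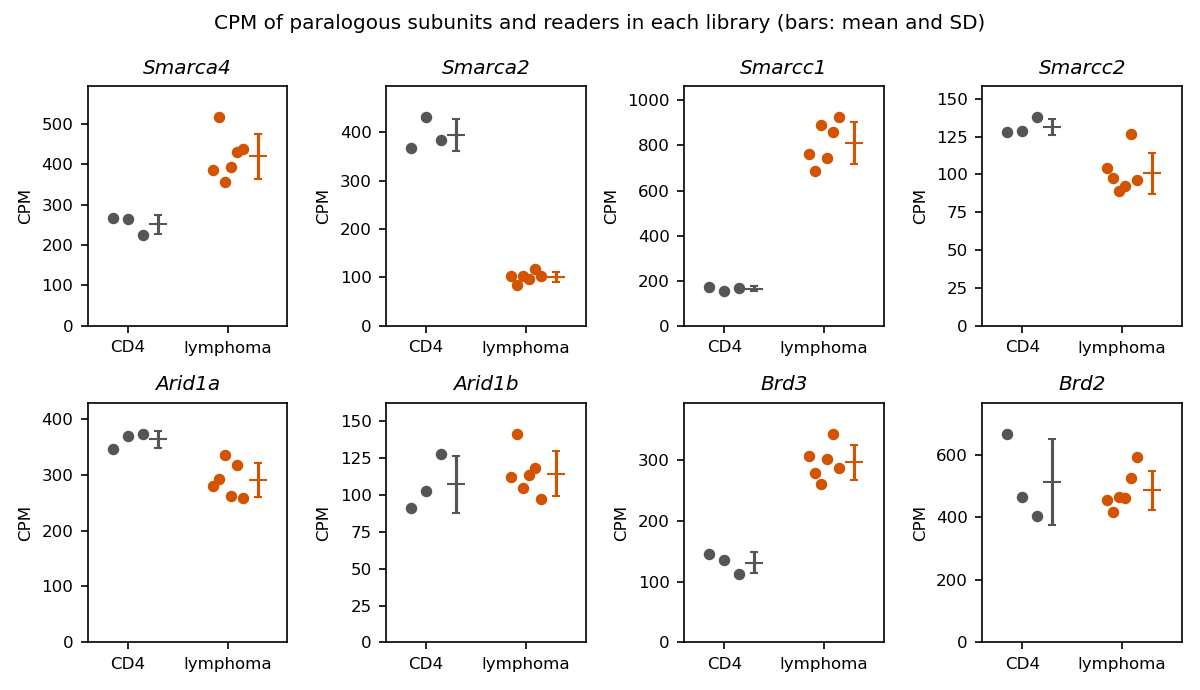
CPM of 8 genes in each library (points), with the mean and SD beside them, for 3 CD4 and 6 lymphoma libraries; each y axis starts at 0. Smarca4, Smarcc1 and Brd3 lie higher and Smarca2 lower in every lymphoma, while Arid1b and Brd2 overlap between the groups.

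Promoter sequences of these paralogue pairs are shown because the ratio within each pair shifted between the groups. RefSeq windows (GRCm38.p6) run from 250 bases before to 50 bases after a start site and were matched for 30 of the 41 members. Letters searched on both strands were the MYC E-box CACGTG, the GC box GGGCGG, the CCAAT box CCAAT and an ETS motif CCGGAAG, and matches are in capitals. In these windows no match overlapped a match of another motif. The windows are chr9:21615919-21616218 for Smarca4, chr19:26604910-26605209 for Smarca2, chr9:110131774-110132073 for Smarcc1 and chr10:128458986-128459285 for Smarcc2, all on the plus strand. The Smarcc1 window lies inside the GENCODE gene, at a start site downstream of its first base.
Smarca4: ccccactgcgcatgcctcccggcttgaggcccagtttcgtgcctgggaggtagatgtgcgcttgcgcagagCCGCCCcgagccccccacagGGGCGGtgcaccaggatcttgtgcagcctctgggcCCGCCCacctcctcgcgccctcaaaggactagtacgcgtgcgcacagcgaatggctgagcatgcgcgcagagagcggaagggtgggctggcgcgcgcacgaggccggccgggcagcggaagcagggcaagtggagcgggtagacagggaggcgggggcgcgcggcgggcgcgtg
Smarca2: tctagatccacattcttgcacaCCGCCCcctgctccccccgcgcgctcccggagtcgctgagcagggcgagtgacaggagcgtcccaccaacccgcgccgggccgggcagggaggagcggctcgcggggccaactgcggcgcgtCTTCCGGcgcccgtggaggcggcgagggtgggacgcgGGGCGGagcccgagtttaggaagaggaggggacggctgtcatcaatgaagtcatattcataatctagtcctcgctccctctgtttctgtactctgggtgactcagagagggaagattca
Smarcc1: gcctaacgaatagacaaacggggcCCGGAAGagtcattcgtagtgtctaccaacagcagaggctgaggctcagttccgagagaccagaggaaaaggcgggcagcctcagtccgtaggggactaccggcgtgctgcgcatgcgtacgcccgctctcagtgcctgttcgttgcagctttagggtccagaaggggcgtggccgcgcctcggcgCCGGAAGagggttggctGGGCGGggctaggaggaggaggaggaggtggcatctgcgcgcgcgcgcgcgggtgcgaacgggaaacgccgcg
Smarcc2: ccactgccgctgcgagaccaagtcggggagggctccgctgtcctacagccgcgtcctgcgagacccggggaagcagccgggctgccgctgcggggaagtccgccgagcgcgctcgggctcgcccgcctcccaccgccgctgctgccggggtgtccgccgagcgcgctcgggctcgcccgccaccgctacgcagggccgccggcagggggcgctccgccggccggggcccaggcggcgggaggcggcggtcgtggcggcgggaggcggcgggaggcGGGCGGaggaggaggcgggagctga

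All 4 windows are rich in CpG, with 33 CpG in Smarca4, 29 in Smarca2, 33 in Smarcc1 and 48 in Smarcc2. The median was 27 over the 39 windows of members and 7 over all 32851 windows outside chr18. Smarca4 held 3 GC boxes, Smarca2 2 GC boxes and 1 ETS match, Smarcc1 1 GC box and 2 ETS matches, and Smarcc2 1 GC box. The letters CACGTG were in none of the 39 windows of the 30 matched members, and in 7.15% of all windows. GC boxes were in the windows of 26 of the 30 members (86.7%, against 38.2% of all genes), CCAAT in 9 (30%, against 41.1%) and the ETS letters in 6 (20%, against 9.93%). All genes here are the 27025 with a window outside chr18, whether or not they were tested. The sets were not matched for base content: median GC was 66% over member windows and 52.7% over all windows. Among members with a window, GC boxes were in 8 of 10 that rose and in 6 of 8 that fell. A match of letters is a description of the window and shows no binding.

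Other core subunits of BAF also rose. Smarcb1, a core subunit and tumour suppressor, rose by 0.89 (SE 0.174, edgeR adjusted p 0.00134), from 43.8, 33.96 and 36.8 CPM in CD4 to between 60.2 and 85.2 CPM. Smarce1, which carries an HMG box, had 60.2, 52.9 and 85.6 CPM in CD4 and 92.9 to 127 CPM in lymphoma. It rose by 0.68 (SE 0.186, edgeR adjusted p 0.0102), and its adjusted p was 0.0571 without CD4 2. Smarcd1 had 25.9, 22.3 and 18.7 CPM in CD4 and 31.1 to 51.7 CPM in lymphoma, a rise of 0.96 (SE 0.204, edgeR adjusted p 0.00231). Its paralogue Smarcd2 rose by 0.48 (SE 0.169, edgeR adjusted p 0.0350). The Smarcd2 call was lost in 8 of 18 alternatives, among them leaving out lymphoma 72 (adjusted p 0.0503), CD4 1 (0.0663), CD4 2 (0.103) or CD4 3 (0.0678). The ratio of Smarcd1 to Smarcd2 did not pass (difference 0.49, exact permutation p = 0.0714, adjusted 0.0893). The third paralogue, Smarcd3, had 3, 0 and 0 reads in CD4 and 3 to 9 reads in each lymphoma.

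Among ATPases outside BAF, Smarcad1, a remodeller that acts at replicating and damaged DNA, rose by 1.08 (SE 0.197, edgeR adjusted p 0.000872). It had 22.6, 25.3 and 19.4 CPM in CD4 and 33.8 to 56.5 CPM in lymphoma, with no overlap. The ISWI ATPase Smarca5 had 129, 124 and 164 CPM in CD4. In lymphoma it had 130 CPM in library 53 and 254 to 343 CPM in the other 5, so the groups overlapped through lymphoma 53. Its rise of 0.88 (SE 0.255, edgeR adjusted p 0.0140) lost its call without CD4 1 (0.0540) and without CD4 2 (0.0648). Smarca1, the other ISWI ATPase, had 10 reads in CD4 3 and 0 in the other 8 libraries. Smarcal1, an annealing helicase of stalled forks, changed by 0.44 (SE 0.219, edgeR adjusted p 0.118).

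Of the Arid subunits of BAF and PBAF, Arid2 passed the test and Arid1a and Arid1b did not. Arid1a (ENSMUSG00000007880, chr4:133679008-133756769, minus strand) had 346, 370 and 373 CPM in CD4 and 258 to 335 CPM in the lymphomas (median 286). All lymphomas were below all CD4 libraries, yet the log2 fold change of -0.32 (SE 0.137) did not pass (edgeR adjusted p 0.0747). It passed in 6 of 18 alternatives, among them leaving out lymphoma 53 (0.0461), and the adjusted p ranged from 0.0207 to 0.941. Over the alternatives its log2 fold change ranged from -0.42 to -0.015, and in fits without 1 library from -0.35 to -0.24. Arid1b (ENSMUSG00000069729, chr17:4994332-5347656, plus strand) had 90.8, 102 and 128 CPM in CD4 and 97.0 to 141 CPM in the lymphomas, with overlap (0.10, SE 0.170, edgeR adjusted p 0.677). Its sign turned with upper quartile scaling, and it was called higher, at 0.47, after the GC and length correction (adjusted p 0.0337).

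The log2 ratio of Arid1a to Arid1b was 1.93, 1.85 and 1.54 in CD4 1, 2 and 3, and 1.32, 1.05, 1.68, 1.21, 1.42 and 1.41 in the lymphomas in the order of their numbers. The groups overlapped through CD4 3 and lymphoma 56. The difference was -0.43, with an exact two-sided permutation p of 0.0476 that became 0.0649 after adjustment over the 15 pairs, and so failed the correction. The exact p was 0.0714 when any 1 of lymphomas 34, 53, 70, 72 and 86 was left out. For Arid1a against the PBAF subunit Arid2 the ratio fell in all 6 lymphomas below all CD4 libraries, by 0.79 (exact permutation p = 0.0238, adjusted 0.0357). Arid2 itself had 110, 116 and 131 CPM in CD4 and 140 to 229 CPM in lymphoma. Its rise of 0.48 (SE 0.178, edgeR adjusted p 0.0434) was lost in 11 of 18 alternatives, among them leaving out lymphoma 72 (0.0577), CD4 1 (0.107), CD4 2 (0.114) or CD4 3 (0.0602).

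The Arid genes outside BAF held the largest falls of all members. Arid5a, an RNA-binding regulator of inflammatory transcripts, had 41.6, 73.3 and 70.6 CPM in CD4 and 5.29, 15.7, 9.02, 4.10, 3.53 and 11.1 CPM in lymphomas 34, 53, 56, 70, 72 and 86. It fell by 2.93 (SE 0.425, edgeR adjusted p 0.000194). Arid5b, a cofactor known from acute lymphoblastic leukaemia, had 55.9, 74.0 and 80.7 CPM in CD4 and 6.45, 18.4, 17.3, 4.78, 3.73 and 17.3 CPM in the lymphomas. Both genes were lowest in lymphomas 34, 70 and 72, and in each gene all lymphomas were below all CD4 libraries. Arid5b fell by 2.64 (SE 0.481, edgeR adjusted p 0.00110), and the ratio of Arid5a to Arid5b did not pass (difference -0.19, exact permutation p = 0.429, adjusted 0.459).

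Arid3b, a paralogue of the B cell factor Arid3a (Bright), fell by 2.54 (SE 0.177, edgeR adjusted p 7.86e-07). It had 82.5, 95.9 and 114 CPM in CD4 and 12.7 to 19.4 CPM in lymphoma. Arid3a moved the other way, from 31.0, 39.7 and 39.9 CPM to 45.0 to 60.3 CPM. Its rise of 0.50 (SE 0.167, edgeR adjusted p 0.0271) lost its call in 5 of 18 alternatives, among them without lymphoma 72 (0.0551) and without CD4 1 (0.105). The ratio of Arid3a to Arid3b showed the largest shift of the 13 pairs given here, 3.04 on the log2 scale or 8.24-fold (exact permutation p = 0.0238, adjusted 0.0357). Beside these values stand the B cell markers, whose sums did not overlap between the groups and were the higher in CD4; their part in the Arid3a and Arid3b values was not tested. Arid3c had 1 read in lymphoma 86, 1 in CD4 3 and 0 elsewhere.

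Arid4a and Arid4b, paralogues that bind the retinoblastoma protein and the SIN3 deacetylase complex, both fell. Arid4a had 751, 743 and 814 CPM in CD4 and 168 to 277 CPM in lymphoma. It fell by 1.83 (SE 0.157, edgeR adjusted p 3.73e-06). Arid4b had 632, 687 and 803 CPM in CD4. In lymphoma it had 136 CPM in library 53 and 274 to 407 CPM in the others, and it fell by 1.25 (SE 0.260, edgeR adjusted p 0.00203). After the GC and length correction Arid4b stood at -0.56. Exons of Arid4b overlap those of Ggps1 on the other strand. Their ratio did not pass (difference -0.53, exact permutation p = 0.0952, adjusted 0.110). Without lymphoma 53 the difference was -0.67 with an exact p of 0.0357.

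**Figure D3:**
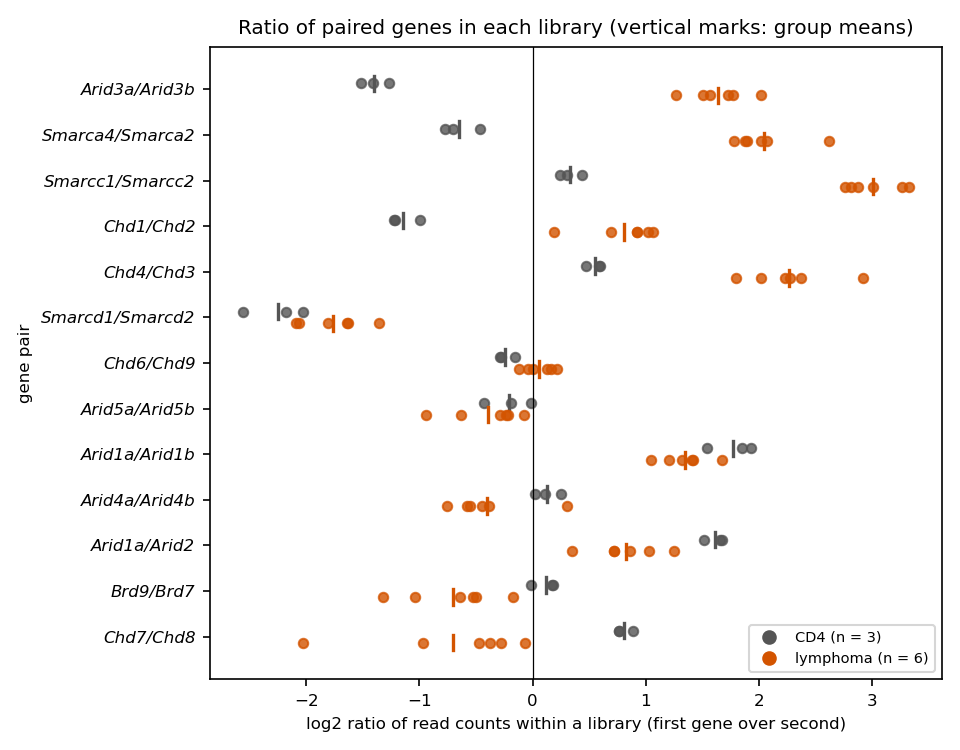
Log2 ratio of read counts within each library for 13 gene pairs, with points for the 3 CD4 and 6 lymphoma libraries and vertical marks for group means. The groups do not overlap in 9 pairs; Arid3a/Arid3b, Smarca4/Smarca2 and Smarcc1/Smarcc2 show the largest shifts.

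The Chd ATPases of NuRD parted as well. Chd4, the main NuRD ATPase in lymphocytes, had 513, 588 and 577 CPM in CD4 and 758 to 984 CPM in lymphoma, a rise of 0.62 (SE 0.143, edgeR adjusted p 0.00378). Chd3 had 339, 423 and 384 CPM in CD4 and 130 to 232 CPM in lymphoma, and fell by 1.08 (SE 0.187, edgeR adjusted p 0.000626). Neither gene overlapped between the groups. The log2 ratio of Chd4 to Chd3 rose from 0.55 ± 0.0676 (SD, n = 3) to 2.27 ± 0.381 (SD, n = 6), a difference of 1.72 (exact permutation p = 0.0238, adjusted 0.0357). Chd5, a NuRD ATPase best known in neurons, was low in all libraries (3.15, 6.96 and 6.61 CPM in CD4, 0.731 to 1.77 CPM in lymphoma) and fell by 2.04 (SE 0.470, edgeR adjusted p 0.00386). Chd3os rose by 0.94 (SE 0.338, edgeR adjusted p 0.0385), a call lost in 11 of 18 alternatives, 6 of them leaving out 1 library (lymphoma 34, 70, 72 or 86, or CD4 1 or 3), where the adjusted p was 0.0548 to 0.123.

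Chd1 and Chd2 are close paralogues linked to transcribed genes. Chd2 had 594, 645 and 707 CPM in CD4 and 123 to 188 CPM in lymphoma and fell by 2.05 (SE 0.153, edgeR adjusted p 1.45e-06), or 4.13-fold. Chd1 had 256, 275 and 355 CPM in CD4. In lymphoma it had 140 CPM in library 53 and 298 to 329 CPM in the other 5, so the groups overlapped and no change was called (-0.07, SE 0.241, edgeR adjusted p 0.845). The ratio of Chd1 to Chd2 rose by 1.95 (exact permutation p = 0.0238, adjusted 0.0357), with all lymphomas above all CD4 libraries. Chd1l, a remodeller recruited by poly(ADP-ribose), rose by 0.76 (SE 0.241, edgeR adjusted p 0.0216), with overlap through lymphoma 53. It lost its call without CD4 1 (0.0850), without CD4 3 (0.0639) and after the GC and length correction (0.0638).

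Of the group formed by Chd6, Chd7, Chd8 and Chd9, Chd7, the gene of CHARGE syndrome, changed most. It had 441, 519 and 538 CPM in CD4 and 217, 56.1, 174, 201, 139 and 197 CPM in lymphomas 34, 53, 56, 70, 72 and 86. All lymphomas were below all CD4 libraries, with lymphoma 53 lowest, and Chd7 was 3.04-fold lower (SE 0.316 on the log2 scale, edgeR adjusted p 0.00158). Its ratio to Chd8, a regulator of WNT target genes, fell by 1.51 (exact permutation p = 0.0238, adjusted 0.0357). Chd9 fell by 0.73 (SE 0.151, edgeR adjusted p 0.00186), but was 0.12 after the GC and length correction (adjusted p 0.490). Chd6 (-0.42, SE 0.184, edgeR adjusted p 0.0778) and Chd8 (-0.22, SE 0.132, edgeR adjusted p 0.203) did not pass. After that correction Chd6 stood at 0.28 and Chd8 at 0.39, and Chd8 was then called higher (adjusted p 0.0279). Chd6 was called lower in 5 of 18 alternatives: RLE (0.0490), upper quartile (0.0398), DESeq2 (0.0404), a mean of at least 50 counts (0.0429) and leaving out lymphoma 72 (0.0498). The ratio of Chd6 to Chd9 rose by 0.30 with no overlap (exact permutation p = 0.0238, adjusted 0.0357).

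Of Brd2 and Brd3, Brd3 passed the test. Brd3 had 145, 136 and 113 CPM in CD4 and 261 to 344 CPM in the lymphomas (median 294), all above CD4. Its log2 fold change was 1.17 (SE 0.155, edgeR adjusted p 8.56e-05). Brd2 had 668, 467 and 403 CPM in CD4 and 416 to 593 CPM in lymphoma, with overlap (-0.07, SE 0.180, edgeR adjusted p 0.764). The sign of Brd2 turned without CD4 1, where it was 0.18. Exons of Brd2 overlap those of H2-DMa on the opposite strand, so the same limit holds for its values.

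Of the other bromodomain members, 1 passed the test. Brd1, a scaffold of the HBO1 acetyltransferase complex, fell by 0.79 (SE 0.171, edgeR adjusted p 0.00264), from 132, 165 and 153 CPM to 68.1 to 105 CPM. Brd9, a subunit of the non-canonical BAF complex, had 140, 172 and 160 CPM in CD4 and 88.5 to 151.5 CPM in lymphoma, with overlap (-0.45, SE 0.183, edgeR adjusted p 0.0616). It passed in 7 of 18 alternatives, among them without lymphoma 53 (0.00831). Brd7, its PBAF counterpart, had 141, 151 and 142 CPM in CD4 and 171 to 221 CPM in lymphoma (0.35, SE 0.143, edgeR adjusted p 0.0618), and passed without lymphoma 34 (0.0499) and without lymphoma 53 (0.0287). The ratio of Brd9 to Brd7 fell by 0.82, with all lymphomas below all CD4 libraries (exact permutation p = 0.0238, adjusted 0.0357). Brd8, a subunit of TIP60 and p400 complexes, had 238, 287.5 and 256 CPM in CD4 and 214 to 309 CPM in lymphoma. It did not pass (-0.02, SE 0.160, edgeR adjusted p 0.935).

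Of the 13 pairs given here, 9 did not overlap between the groups, 6 with the ratio higher and 3 with it lower in lymphoma. The share of other gene pairs whose ratios do not overlap was not computed. Taken singly, 44.9% of all tested genes did not overlap. The 2 pairs that share Arid1a are not independent. Smarca5/Smarca1 and Smarcd1/Smarcd3 were left out because 1 gene of each was under the filter.

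**Figure D4:**
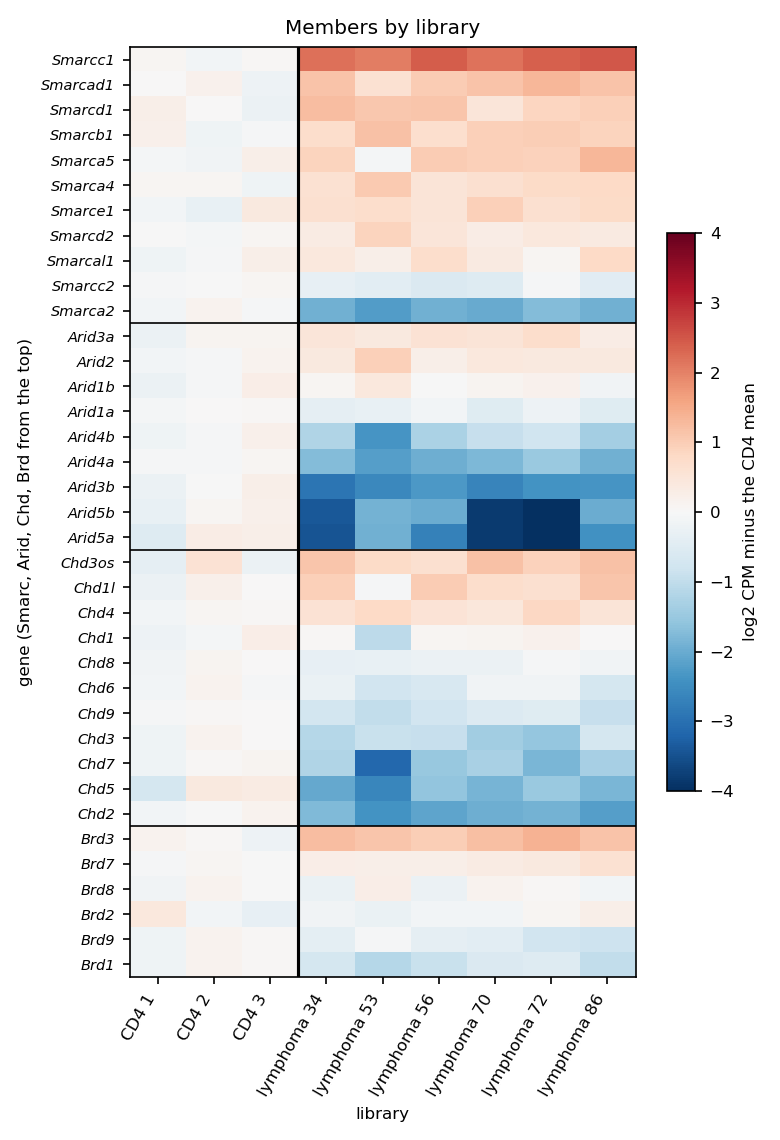
Log2 CPM minus the CD4 mean for 37 of the 38 tested members (rows, by family) in the 3 CD4 and 6 lymphoma libraries (columns). Smarcc1 is high and Smarca2, Arid3b and Chd2 are low in all 6 lymphomas, and lymphoma 53 has the lowest Chd7, Chd1 and Arid4b.

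Spread between libraries was described next. The median SD of log2 CPM among lymphomas was 0.22 over the tested members and 0.47 over all tested genes, sets that were not matched for level. Among CD4 libraries it was 0.17 and 0.36. Lymphoma 53 was the lowest lymphoma at 16 of the 38 members (42.1%, against 33.3% of all tested genes) and the highest at 9 (23.7%, against 30.5%). Lymphoma 72 was the highest at 15 members (39.5%, against 13.6%). Across the 38 members, Pearson's r of log2 CPM was 0.929 to 0.994 between lymphomas, 0.985 to 0.990 between CD4 libraries and 0.725 to 0.834 between the groups. Each r is taken over genes of the same libraries, and genes are not replicates.

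Partner subunits of the same complexes were counted from lists chosen for their function. Of all tested genes 46.6% were called, 24.7% higher and 21.9% lower. Of 15 tested BAF and PBAF partners, 60% were called: 5 rose and 4 fell (median -0.04, also with Dpf3 at its bound below). Without CD4 3, 2 fell. Bcl11a, a zinc finger protein of B cells and plasmacytoid dendritic cells that joins BAF, had 318 ± 52.6 CPM (SD, n = 3) in CD4 and 5.30 ± 7.6 CPM (SD, n = 6) in lymphoma. Its log2 fold change was -5.89 (SE 0.867, edgeR adjusted p 0.000560), -7.14 without lymphoma 34 and -6.63 with limma voom. Siglech, a plasmacytoid dendritic cell marker, had 60.7 to 69.1 CPM in CD4 and at most 6 reads in any lymphoma. The B cell markers summed to 2819 to 3459 CPM in CD4 and 259 to 425 CPM in lymphoma. The part of either cell type in the Bcl11a value was not tested. Dpf3, a histone reader of BAF, had 0 reads in every CD4 library and 0.451 to 1.73 CPM in lymphoma. Set against a floor of 3 reads per CD4 library, it was at least 4.27-fold higher.

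Most NuRD partners were higher in lymphoma. Of 12 tested, Hdac1, Hdac2, Mta1, Mta2, Mta3, Mbd3, Rbbp7, Gatad2a and Cdk2ap1 rose and 0 fell, with a median of 0.90. This is 75% called, where 46.6% of all tested genes were. No NuRD partner was lower in any fit that left out 1 library, and 1 was after the GC and length correction. At an unadjusted p under 0.05 in edgeR, 0 NuRD partners were lower. Cdk2ap1, the largest of these rises, had 7.30 ± 4.56 CPM (SD, n = 3) in CD4 and 36.4 ± 9.52 CPM (SD, n = 6) in lymphoma. It rose by 2.31 (SE 0.398, edgeR adjusted p 0.000575), and by 2.93 without CD4 1. Of 9 ISWI partners, 2 rose and 4 fell (66.7% called, median -0.26). Pole3, a histone fold subunit shared with DNA polymerase epsilon, rose by 2.02 (SE 0.248, edgeR adjusted p 5.07e-05). Cecr2, a bromodomain partner of ISWI, fell by 4.55 (SE 0.781, edgeR adjusted p 0.000572), to 0 to 15 reads per lymphoma from 83 to 127 per CD4 library. Its log2 fold change was -5.24 with limma voom and -3.89 after the GC and length correction.

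**Figure D5:**
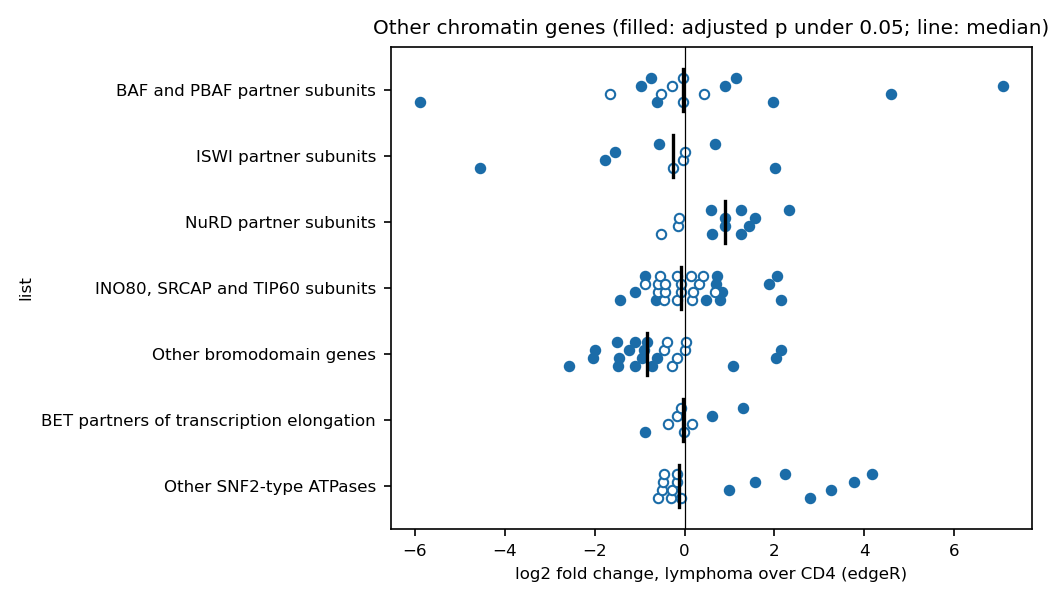
Log2 fold change of lymphoma over CD4 for each tested gene of 7 other lists of chromatin genes (points; filled for an edgeR adjusted p under 0.05), with a line at each list's median. NuRD partners have a median of 0.90 and other bromodomain genes one of -0.84; the highest BAF point is Dpf3, whose fitted value depends on the prior count.

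Bromodomain genes outside the symbol rule were more often lower than higher. Of 23 tested, 14 fell, where 21.9% of all tested genes did, and 3 rose, where 24.7% did, with a median log2 fold change of -0.84. After the GC and length correction 10 fell. The 14 were Kat2b, Kmt2a, Zmynd11, Crebbp, Brwd1, Sp100, Ash1l, Trim24, Phip, Zmynd8, Atad2b, Ep300, Sp140 and Sp110, and the 3 were Trim28, Kat2a and Atad2. Atad2, a bromodomain ATPase, rose most, by 2.16 (SE 0.207, edgeR adjusted p 8.71e-06), and by 2.84 after the GC and length correction. Sp140, an immune nuclear body protein, fell by 2.57 (SE 0.308, edgeR adjusted p 4.26e-05), the largest fall of the list. It had 42.4 ± 1.04 CPM (SD, n = 3) in CD4 and 7.13 ± 2.32 CPM (SD, n = 6) in lymphoma.

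Among INO80, SRCAP and TIP60 subunits 29 rows were tested (Srcap has 2), of which 8 were higher and 4 lower (median -0.07). That is 41.4% called, against 46.6% of all tested genes, and 8 were lower without lymphoma 53. Ruvbl1, an AAA+ ATPase of these complexes, rose by 2.15 (SE 0.266, edgeR adjusted p 5.39e-05), and Epc1, a scaffold of TIP60, fell by 1.43 (SE 0.146, edgeR adjusted p 1.32e-05). Of 8 BET partners in elongation, 37.5% were called: 2 rose, with Larp7, which stabilises 7SK RNA, at 1.29 (SE 0.139, edgeR adjusted p 2.00e-05). Ccnt2, a cyclin of P-TEFb, fell by 0.89 (SE 0.149, edgeR adjusted p 0.000499), the 1 fall of that list. Without CD4 2, 1 BET partner rose. Of 16 rows of other SNF2-type ATPases, 7 rose and 0 fell by edgeR (median -0.12), so that 43.8% were called, against 46.6% of all tested genes. DESeq2 called 1 lower, and 1 was lower at an unadjusted p under 0.05 in edgeR. Ercc6l, an ATPase of the mitotic spindle, rose most, by 4.17 (SE 0.349, edgeR adjusted p 3.15e-06).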

How the data were processed

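Transcript 3′ ends were sequenced in 6 lymphomas and 3 CD4 preparations. The deposited table holds raw read counts per Ensembl gene, as its whole-number values show, and 5 summary rows for reads in no gene. The submitters' processing notes name FastQC, HISAT2, SAMtools and HTSeq and the builds mm10 and GRCm38, without versions; annotation and strand setting are not given in the sources used here. The number of columns matching no sample was 0. Summary rows were left out of all fits: reads in genes were 38.7% to 49.1% of the total in lymphoma and 27.8% to 35.0% in CD4.

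Counts were tested with edgeR 4.0.16 (R 4.3.3): filterByExpr with a minimum count of 10, TMM, glmQLFit (robust) and glmQLFTest over all 9 libraries with no covariate, adjusted over 15401 genes with a threshold of 0.05. SE was taken as |log2 fold change|/sqrt(F), F being the test statistic. Log2 CPM used a prior count of 2. Pair ratios used log2((count + 0.5)/(count + 0.5)) and exact two-sided permutation of 84 assignments (scipy 1.17.1), adjusted over the 15 pairs computed. For 1 member, values and 2 pairs are not reported here.

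Members, lists, pairs and tests were chosen with earlier results of these data known. Members named with values are those in a listed pair, and the 2 largest rises and falls past the threshold in each family; other members were added for completeness. Of each other list the largest rise and fall are named. Siglech, Hdac1 and further names in lists of all called genes are given to complete a count, and Ighm for its share of a sum. Positions and lengths are from GENCODE M21 (GRCm38), matched for all 41 members. Exons of 17 members overlap another gene. Counting floors of 3 reads cover counting error only. Alternatives were other scalings, DESeq2 1.42.0, limma 3.58.1 voom, other filters and thresholds, leaving out each library, averaging lymphomas 34, 70 and 72 (the labels do not say they are independent) and, added after seeing the data, removal of a GC and length trend.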

Additional observations from a re-analysis of the deposited data

Results flagged for a closer look

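Among the 6 lymphomas, 71 results were checked for a lymphoma standing apart, with a gap to its nearest neighbour above 0.625 of the whole range. Chance flags about 1 in 20, or 3.55 of 71. This held for 9 results, 7 of them through lymphoma 53.

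Lymphoma 53 had the highest Arid2 (229 CPM, others 140 to 158 CPM) and the highest Smarcd2 (198 CPM, others 130.0 to 147 CPM), and the lowest Chd1 (140 CPM, others 298 to 329 CPM). Its log2 ratio of Smarca4 to Smarca2 was the highest, at 2.62 (others 1.78 to 2.07), as was that of Arid4a to Arid4b, at 0.30 (others -0.75 to -0.38). Outside the members, it had the highest Pecam1, an endothelial and leukocyte gene (81.3 CPM, others 59.3 to 64.8 CPM), and the lowest Sp140 (2.65 CPM, others 6.86 to 9.03 CPM). Bcl11a was highest in lymphoma 34, at 20.8 CPM (others 1.57 to 3.47 CPM). The B cell marker Fcer2a was highest in lymphoma 56, at 0.218 CPM, which is 3 reads.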

How the results depend on the processing

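Of the 26 called members, 18 kept their direction and call in every one of the 18 alternatives that gave a value (17 for Chd5), among them Smarca4, Smarca2, Smarcc1, Arid3b, Arid4a, Arid4b, Arid5a, Arid5b, Chd2, Chd4, Chd7 and Brd3. Calls of 7 others (Smarca5, Smarcd2, Smarce1, Arid2, Arid3a, Chd1l and Chd3os) were lost in some, and Chd9 reversed in 1. The number of members called was 20 to 30 over fits without 1 library (higher 8 to 15, lower 12 to 15), 29 with DESeq2 and 28 with limma voom. Stricter thresholds are not among the 18 alternatives. With the 2-fold rule 13 members were called, 3 of them higher, and 7 were higher at an adjusted p under 0.01. Smarca4 (0.74) and Chd4 (0.62) did not reach the 2-fold rule. The median over all genes was 0.04, 0.20 without a filter and -0.06 with upper quartile scaling. No paired analysis was possible because the groups share no replicate number. The cause of the changes below was not tested.

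Signs turned only for genes without a call, apart from Chd9. Removing the GC and length trend gave 0.027 for Brd2, 0.33 for Brd8, 0.15 for Chd1, 0.28 for Chd6, 0.39 for Chd8 and 0.12 for Chd9. Arid1b was -0.0072 with upper quartile scaling. Without 1 library Brd2 was -0.21 to 0.18 (the latter without CD4 1), and Chd1 was -0.14 to 0.10, turning without lymphoma 53 (0.067) and CD4 3. Brd8 was 0.0066 without a filter, 0.0079 with lymphomas 34, 70 and 72 averaged, and -0.082 to 0.070 without 1 library, turning without lymphoma 34, 56 or 86 or CD4 2.

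Without 1 library, the ratio difference of Arid1a/Arid1b was -0.54 to -0.35 and that of Arid4a/Arid4b -0.67 to -0.46. A test of pairs without a CD4 library cannot reach 0.05, and those fits give values only.

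For the other lists, counts moved as follows. With a mean of at least 50 counts, 3 BAF partners were higher and 1 SNF2-type ATPase lower. At an adjusted p under 0.01, 3 BAF partners, 5 INO80, SRCAP and TIP60 subunits and 1 BET partner were higher. With the 2-fold rule, 1 ISWI partner, 5 NuRD partners, 3 INO80, SRCAP and TIP60 subunits and 1 BET partner were higher, and 1 BAF partner, 2 INO80, SRCAP and TIP60 subunits, 9 bromodomain genes and 0 BET partners were lower. Removing the GC and length trend left 1 NuRD and 2 BET partners lower. RLE, upper quartile, library size and DESeq2 each called 1 SNF2-type ATPase lower. Without 1 library, 2 to 5 BAF partners, 3 to 8 INO80, SRCAP and TIP60 subunits and 0 to 1 SNF2-type ATPases were lower, and 1 to 2 BET partners were higher.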
